A study of Mus musculus with 9 samples.

Results

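The genes described here are 8 direct response genes of the TGF-beta pathway, Thbs1, Fn1, Vcan, Skil, Ski, Tgfbi, Pmepa1 and Ccn2, read in the anterior segment of the newborn mouse eye. They were found in the count table by their Ensembl identifiers on the mouse build GRCm38 and make up 8 of its 35275 genes. All 8 had enough counts to be among the 15825 genes tested. The tissue came from 6 samples heterozygous for the G1344D allele of Col4a1 (Col4a1+/G1344D, called mutant), a missense change in a type IV collagen chain of basement membranes, and from 3 Col4a1+/+ samples (called wildtype), all collected at postnatal day 0. Each sample pooled 4 eyes of 2 mice, so its counts average over animals. The tissue kept held drainage structures, ciliary body, iris and cornea, without the lens, and in such bulk tissue fewer cells of a type and less RNA per cell cannot be told apart.

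TGF-beta is secreted as a latent complex held in the extracellular matrix. Once released, it binds paired serine/threonine kinase receptors, which phosphorylate SMAD2 and SMAD3. These join SMAD4, enter the nucleus and switch on genes for matrix proteins, for secreted modulators and for inhibitors that damp the signal. In the anterior segment the pathway is known for its part in the development of corneal stroma and endothelium and of the drainage tissue. Thbs1, Fn1, Vcan and Tgfbi encode matrix proteins, Ccn2 a secreted matricellular protein, and Skil, Ski and Pmepa1 inhibitors of the pathway.

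The RefSeq table of promoter windows on GRCm38.p6, each 250 bases before to 50 after a gene's start, held 3 of the members, Vcan, Ski and Tgfbi. Their windows are shown because SMAD proteins act on such stretches and these 3 genes differ in how much they changed. Capitals mark the 4-base SMAD core AGAC and its reverse complement GTCT, and the GC-rich SMAD motif GGCGC and its reverse complement GCGCC, where overlapping matches run together.
Vcan, chr13:89742463-89742762, minus strand: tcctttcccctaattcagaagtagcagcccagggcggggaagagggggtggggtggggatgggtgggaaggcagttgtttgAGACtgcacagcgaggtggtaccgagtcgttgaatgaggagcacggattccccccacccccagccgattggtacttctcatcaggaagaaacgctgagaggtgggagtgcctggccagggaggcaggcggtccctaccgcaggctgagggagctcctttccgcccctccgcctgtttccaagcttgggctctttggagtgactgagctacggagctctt
Tgfbi, chr13:56609336-56609635, plus strand: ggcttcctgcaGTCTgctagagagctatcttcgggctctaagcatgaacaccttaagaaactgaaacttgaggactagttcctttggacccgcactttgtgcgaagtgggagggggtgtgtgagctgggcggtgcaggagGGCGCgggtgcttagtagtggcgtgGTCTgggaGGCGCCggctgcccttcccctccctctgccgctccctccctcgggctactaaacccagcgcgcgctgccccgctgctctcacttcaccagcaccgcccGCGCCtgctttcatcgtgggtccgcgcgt
Ski, chr4:155222486-155222785, minus strand: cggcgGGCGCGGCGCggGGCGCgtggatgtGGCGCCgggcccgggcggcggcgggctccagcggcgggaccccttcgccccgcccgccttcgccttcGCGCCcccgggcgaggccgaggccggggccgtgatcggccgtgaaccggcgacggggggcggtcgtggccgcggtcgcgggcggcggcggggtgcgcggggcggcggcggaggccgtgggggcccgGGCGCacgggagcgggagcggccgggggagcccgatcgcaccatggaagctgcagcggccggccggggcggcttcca
The Vcan window held 1 match to the SMAD core and 0 to the GC-rich motif, the Tgfbi window 2 and 4, and the Ski window 0 and 7. Over all 32851 promoter windows, 88% held a SMAD core on either strand and 36.9% the GC-rich motif, so each is common. The GC content was 61% for Vcan, 63.3% for Tgfbi and 85.3% for Ski, against a median of 52.7% over all windows. In these 3 windows there was no match to the TEAD motif GGAATG or its reverse complement CATTCC, found in 14.7% of all windows, or the AP-1 motif TGAGTCA or TGACTCA, found in 5.2%. These matches describe letters in the windows and not binding.

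Counts per library summed to between 25995340 and 35306935, and each member had between 1052 and 35369 counts in every library. Markers of the cornea were present: the summed level of corneal and surface epithelium markers ran from 4707 to 5540 CPM in mutant and from 4629 to 5360 CPM in wildtype libraries (CPM, counts scaled to a common library size with TMM factors). Of 8 lens markers, Crybb2 and Lim2 had 0 counts in all libraries, and the list summed to between 5.96 and 8.61 CPM in mutant and between 7.87 and 8.52 CPM in wildtype. The libraries split on Gm42418, a transcript that overlaps ribosomal RNA, which took over 1% of counts in 5 mutant libraries and wildtype 1, and less in mutant 2 and wildtype 2 and 3. Values within each side of that split are given beside the results. Counts per gene do not show the G1344D allele, so the genotype labels were not checked against them. Genes on the opposite strand share exon bases with Thbs1, Fn1 and Ccn2. They held 0, 79 and 82 counts over all libraries, against 59805, 215056 and 29951 for these members, and reads in the shared bases cannot be assigned to a strand here.

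All 8 genes were higher in the mutant. Each passed the edgeR quasi-likelihood test with Benjamini-Hochberg adjustment over all 15825 genes at 0.05, where 9.7% of all tested genes were called higher. The median log2 fold change of the 8 was 0.64, against -0.0019 over all tested genes. The groups did not overlap for any of the 8, and 10.8% of all tested genes were likewise higher in every mutant than in every wildtype library. For each gene an exact two-sided permutation test of log2 CPM over the 84 ways to place the labels gave p = 0.0119, the smallest these groups allow. The genes had been chosen with results of these data known, so their shared direction is a description of them.

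**Figure D1:**
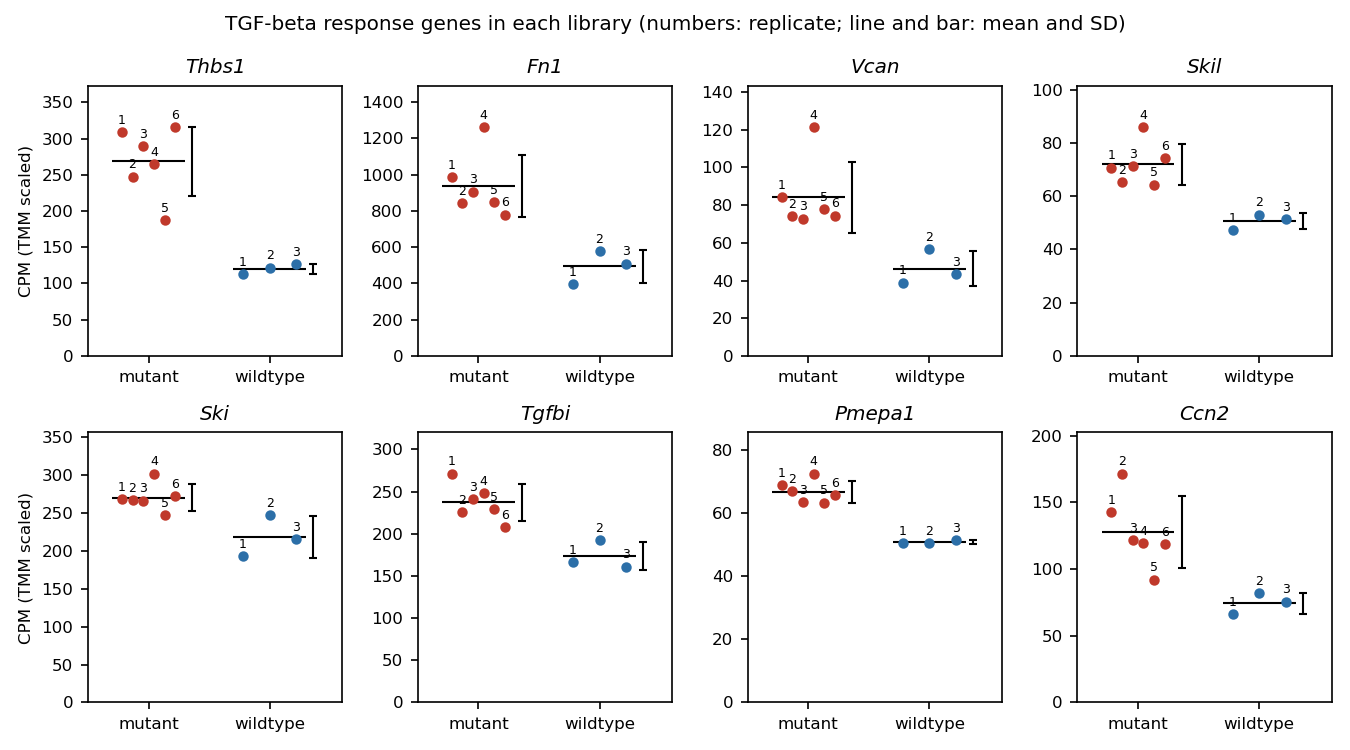
Level of each gene in CPM (vertical axes, starting at 0) in the 6 mutant and 3 wildtype libraries, with replicate numbers beside the points, a line at the mean and a bar for the SD. In all 8 panels the lowest mutant point lies above the highest wildtype point, by the least for Ski.

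Of the matrix genes, Thbs1 had the largest fold change. It encodes thrombospondin-1, a matrix glycoprotein that can release TGF-beta from its latent complex (ENSMUSG00000040152, chromosome 2, 118111876 to 118127133, plus strand). Its level ran from 187 to 316 CPM with a median of 277 CPM over the 6 mutant libraries, and was 113, 122 and 127 CPM in wildtype 1 to 3. The wildtype libraries lay close together, while mutant 5 stood lowest among the mutants and still above every wildtype library. The mean was 269 ± 47.7 CPM in mutant (SD, n = 6) and 120.5 ± 7.035 CPM in wildtype (SD, n = 3), and the fitted log2 fold change was 1.16 (SE 0.134, edgeR adjusted p = 0.000145), a 2.23-fold rise.

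Fn1, the fibronectin gene, had the highest level per length of the 8 in mutant libraries (ENSMUSG00000026193, chromosome 1, 71585520 to 71653200, minus strand). It ran from 778 to 1261 CPM with a median of 877 CPM in mutant libraries, and was 396, 576 and 509 CPM in wildtype 1 to 3. Mutant 4 stood highest and wildtype 1 lowest, and the groups did not overlap. The mean was 937 ± 173 CPM in mutant (SD, n = 6) and 494 ± 91.0 CPM in wildtype (SD, n = 3), with a log2 fold change of 0.92 (SE 0.147, edgeR adjusted p = 0.00153).

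Vcan encodes versican, a large chondroitin sulfate proteoglycan that binds hyaluronan (ENSMUSG00000021614, chromosome 13, 89655312 to 89742509, minus strand). It ran from 72.9 to 121 CPM with a median of 76.1 CPM in mutant libraries, and was 38.8, 56.8 and 43.3 CPM in wildtype 1 to 3. Mutant 4 was far above the other mutants, which lay between 72.9 and 84.2 CPM. The mean was 84.2 ± 18.7 CPM in mutant (SD, n = 6) and 46.3 ± 9.37 CPM in wildtype (SD, n = 3), with a log2 fold change of 0.86 (SE 0.162, edgeR adjusted p = 0.0036). Without mutant 4 the log2 fold change was 0.73 (edgeR adjusted p = 0.000595).

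Tgfbi encodes a secreted fasciclin-domain protein that was first found as a TGF-beta induced gene and whose human counterpart is mutated in inherited corneal dystrophies (ENSMUSG00000035493, chromosome 13, 56609523 to 56639562, plus strand). It ran from 208 to 271 CPM with a median of 235 CPM in mutant libraries, and was 166, 193 and 161 CPM in wildtype 1 to 3. Mutant 1 was highest and mutant 6 lowest among the mutants, above wildtype 2, the highest wildtype library. The mean was 237 ± 21.6 CPM in mutant (SD, n = 6) and 173 ± 16.9 CPM in wildtype (SD, n = 3), with a log2 fold change of 0.45 (SE 0.09, edgeR adjusted p = 0.00428).

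Ccn2, the matricellular gene also known as connective tissue growth factor, is a target of both TGF-beta and YAP signalling (ENSMUSG00000019997, chromosome 10, 24595442 to 24598683, plus strand). It ran from 92.1 to 171 CPM with a median of 120.5 CPM in mutant libraries, and was 66.0, 81.7 and 75.6 CPM in wildtype 1 to 3. Mutant 2 was highest and mutant 5 lowest, close to the wildtype range. The mean was 128 ± 26.9 CPM in mutant (SD, n = 6) and 74.4 ± 7.89 CPM in wildtype (SD, n = 3), with a log2 fold change of 0.78 (SE 0.148, edgeR adjusted p = 0.00382).

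The feedback genes had log2 fold changes between 0.31 and 0.51, near that of Tgfbi. Skil encodes SnoN and Ski its relative c-Ski, nuclear proteins that bind SMADs and repress their target genes, and Pmepa1 encodes a membrane protein that keeps SMAD2 and SMAD3 from being activated. Skil (ENSMUSG00000027660, chromosome 3, 31095058 to 31122577, plus strand) ran from 64.4 to 86.0 CPM with a median of 71.0 CPM in mutant libraries, and was 47.3, 53.1 and 51.4 CPM in wildtype 1 to 3. The mean was 72.0 ± 7.83 CPM in mutant (SD, n = 6) and 50.6 ± 2.98 CPM in wildtype (SD, n = 3). Its log2 fold change was 0.51 (SE 0.0983, edgeR adjusted p = 0.00378), with mutant 4 highest.

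Pmepa1 (ENSMUSG00000038400, chromosome 2, 173224458 to 173276533, minus strand) varied the least within groups. It ran from 63.4 to 72.6 CPM with a median of 66.4 CPM in mutant libraries, and was 50.55, 50.57 and 51.55 CPM in wildtype 1 to 3. The SD was 5.24% of the mean in mutant and 1.125% in wildtype libraries. The mean was 66.9 ± 3.50 CPM in mutant (SD, n = 6) and 50.9 ± 0.572 CPM in wildtype (SD, n = 3). Its log2 fold change was 0.39 (SE 0.0798, edgeR adjusted p = 0.00467).

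Ski (ENSMUSG00000029050, chromosome 4, 155154075 to 155222592, minus strand) had the smallest change. It ran from 247.4 to 302 CPM with a median of 268 CPM in mutant libraries, and was 193, 247.3 and 215.5 CPM in wildtype 1 to 3. Mutant 5 and wildtype 2 were thus nearly level, and only this narrow margin kept the groups apart. The mean was 271 ± 17.7 CPM in mutant (SD, n = 6) and 218.5 ± 27.3 CPM in wildtype (SD, n = 3). Its log2 fold change was 0.31 (SE 0.0872, edgeR adjusted p = 0.0224). The call was lost without wildtype 1 (log2 0.23, edgeR adjusted p = 0.168) and without wildtype 3 (edgeR adjusted p = 0.0844), and with the exon length trend removed (log2 0.24, edgeR adjusted p = 0.0545).

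The other 7 genes kept their calls whichever of the 9 libraries was left out. Without wildtype 1, where 1.88% of all tested genes were called higher, their edgeR adjusted p ran from 0.0036 for Thbs1 to 0.0451 for Ccn2. Within the side of the Gm42418 split with high shares (5 mutant libraries and 1 wildtype library), the difference in mean log2 CPM was 1.25 for Thbs1, 1.25 for Fn1, 1.12 for Vcan and 0.83 for Ccn2. Within the other side (1 mutant library and 2 wildtype libraries) it was 0.99 for Thbs1, 0.64 for Fn1, 0.58 for Vcan and 1.12 for Ccn2. The differences for Skil, Ski, Tgfbi and Pmepa1 were 0.62, 0.49, 0.52 and 0.40 on the first side and 0.32, 0.21, 0.36 and 0.39 on the second. All 16 of these differences were positive, with 1 library in one of the groups on each side and so no test. With the split as a covariate all 8 genes were called higher, and 5.93% of all tested genes. With the Gm42418 share itself as covariate they were again 8, beside 5.02% of all tested genes. Without wildtype 2 all 8 were called, beside 9.48% of all tested genes, and without wildtype 3 the count was 7, beside 5.25%. Tested against a fold of 1.2, Thbs1, Fn1, Vcan and Ccn2 were called, 4 of the 8, beside 1.35% of all tested genes. The fit with the replicate number as a term called 7 of the 8 higher, beside 5.14% of all tested genes. In it mutant 4, 5 and 6 have no wildtype library of their number and do not enter the genotype difference. The labels do not pair samples of the same number.

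**Figure D2:**
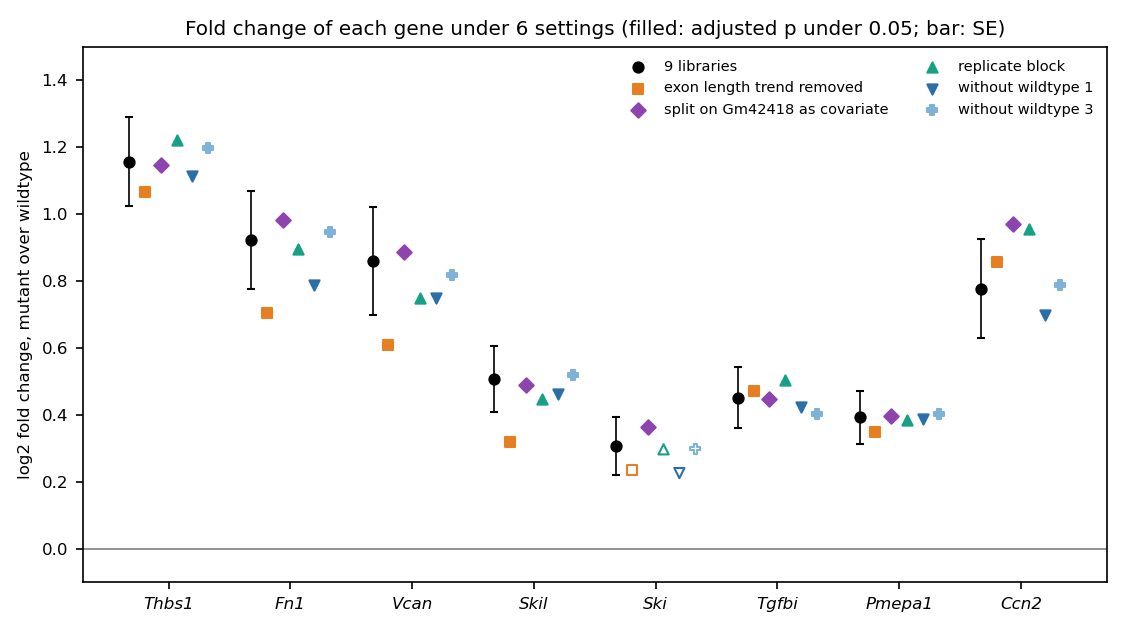
Fitted log2 fold change of mutant over wildtype (vertical axis) for each gene with 9 libraries and under 5 other settings, filled where the adjusted p was under 0.05, with the SE for the fit of 9 libraries. All points lie above 0, and the open points belong to Ski.

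Exon length moved with the result and differed between the genes. Over all tested genes the median log2 fold change was -0.26 in the quintile with the shortest exons and 0.21 in the quintile with the longest, where 2.16% and 24.4% of genes were called higher. Fn1, Vcan and Skil belong to the longest quintile, with 11685, 14462 and 9694 bases of annotated exon. Thbs1, with 6073 bases, and Ski, with 5562, lie in the next longest. Pmepa1, with 4913, and Tgfbi, with 3771, lie in the middle quintile and Ccn2, with 2861, in the one below it. With a smooth trend on exon length removed from each library, 7 of the 8 genes were called higher, and 5.8% of all tested genes. The log2 fold change was then 0.71 for Fn1 and 0.61 for Vcan (edgeR adjusted p = 0.000941 and 0.00282), 0.32 for Skil (edgeR adjusted p = 0.0115), and 1.07 for Thbs1 (edgeR adjusted p = 0.000408). It was 0.35 for Pmepa1, smaller than the 0.39 without the correction, and 0.47 for Tgfbi and 0.86 for Ccn2, larger than the 0.45 and 0.78 without it.

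**Figure D3:**
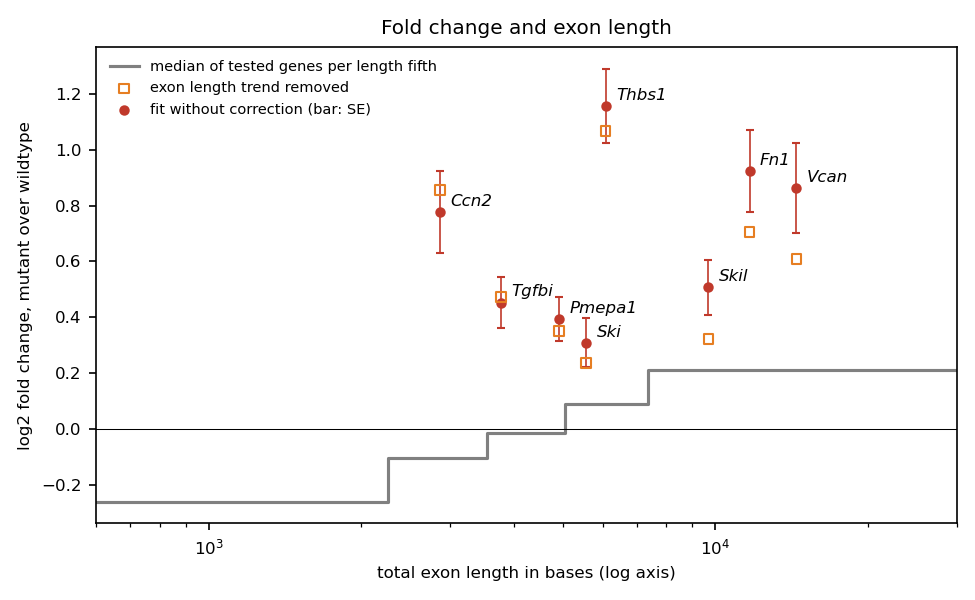
Log2 fold change of mutant over wildtype (vertical axis) against total exon length (log axis) for each gene, with its SE, before and after the exon length trend was removed. The grey steps give the median of all tested genes per length quintile, from -0.26 to 0.21, and the 8 genes lie above them.

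Levels of different genes were compared as CPM per kilobase of annotated exon, which understates genes with long rare exons. In mutant libraries the order from high to low was Fn1 at 80.2 ± 14.8, Tgfbi at 62.9 ± 5.72, Ski at 48.7 ± 3.18, Ccn2 at 44.6 ± 9.38, Thbs1 at 44.3 ± 7.85, Pmepa1 at 13.6 ± 0.713, Skil at 7.42 ± 0.808 and Vcan at 5.82 ± 1.29 CPM per kilobase (SD, n = 6). Ski, Ccn2 and Thbs1 lay within each other's spread. In wildtype libraries it was Tgfbi at 46.0 ± 4.49, Fn1 at 42.3 ± 7.78, Ski at 39.3 ± 4.91, Ccn2 at 26.0 ± 2.76, Thbs1 at 19.9 ± 1.16, Pmepa1 at 10.4 ± 0.117, Skil at 5.22 ± 0.308 and Vcan at 3.20 ± 0.648 CPM per kilobase (SD, n = 3), with Tgfbi, Fn1 and Ski within each other's spread. Fn1 stood above 95.5% of tested genes on this scale over all libraries and Vcan above 53.7%.

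Ratios of counts within a library do not depend on the scaling between libraries. For 6 pairs of a member and a relative or partner, the log2 ratio was tested by an exact two-sided permutation test over the 84 label placements, with adjustment over the 6. Thbs1 over Thbs2, the gene of its closest relative, ran from 0.204 to 0.271 in mutant and from 0.116 to 0.129 in wildtype libraries, a 1.905-fold higher ratio in mutant (exact permutation adjusted p = 0.0238). Thbs2 itself was at 1132 ± 131 CPM in mutant (SD, n = 6) and 977 ± 93.1 CPM in wildtype (SD, n = 3), and did not pass the test (edgeR adjusted p = 0.183).

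Ccn2 over Ccn1, the CCN family member that is also a YAP target, ran from 0.514 to 0.819 in mutant and from 0.373 to 0.496 in wildtype libraries, a 1.62-fold higher ratio in mutant (exact permutation adjusted p = 0.0238). Ccn1 was at 190 ± 46.9 CPM in mutant (SD, n = 6) and 179 ± 27.4 CPM in wildtype (SD, n = 3), and did not pass the test (edgeR adjusted p = 0.78). Fn1 over Itga5, the alpha chain of its main receptor, ran from 9.78 to 15.2 in mutant and from 6.57 to 8.82 in wildtype libraries, a 1.51-fold higher ratio in mutant (exact permutation adjusted p = 0.0238), and without wildtype 1 the unadjusted exact p was 0.0714. Itga5 was itself called higher, at 78.2 ± 8.08 CPM in mutant (SD, n = 6) and 62.1 ± 5.475 CPM in wildtype (SD, n = 3; edgeR adjusted p = 0.0292). It lost its call without mutant 3 or 6 or wildtype 1 or 3, and with the exon length trend removed (edgeR adjusted p = 0.053).

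Skil over Ski ran from 0.244 to 0.285 in mutant and from 0.215 to 0.245 in wildtype libraries (exact permutation adjusted p = 0.0357). That difference of 0.19 on the log2 scale shrank to 0.077 (exact p = 0.298) with the exon length trend removed, and its unadjusted exact p was 0.0536 without mutant 1 or mutant 3, 0.107 without wildtype 2 and 0.0714 without wildtype 3. Tgfbi over Postn, another fasciclin-domain gene, overlapped between groups (exact permutation adjusted p = 0.0857). The unadjusted exact p of this ratio was 0.0119 with the exon length trend removed and 0.0179 without mutant 6. Vcan over Hapln1, a link protein that binds hyaluronan beside versican, overlapped as well (exact permutation adjusted p = 0.0952), and Hapln1 was low, at 1.75 ± 0.888 CPM in mutant (SD, n = 6) and 1.62 ± 0.352 CPM in wildtype (SD, n = 3).

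The genes did not all follow each other among the mutant libraries. Mutant 4 was the highest of the mutants for Fn1, Vcan, Skil, Ski and Pmepa1, mutant 2 for Ccn2, mutant 6 for Thbs1 and mutant 1 for Tgfbi. Mutant 5 was the lowest for Thbs1, Skil, Ski, Pmepa1 and Ccn2. Over the 6 mutant libraries, the Pearson correlation of log2 CPM was positive for 26 of 28 pairs, with a median of 0.46, and 0 pairs passed after adjustment over the 28 (exact permutation; 4 pairs had an unadjusted p under 0.05 by Pearson and 1 by Spearman). The pair Skil and Ski had r = 0.93 and rho = 0.83 (n = 6, exact permutation p = 0.00556 and 0.0583, adjusted p = 0.156 and 0.544), and r = 0.65 without the 2 libraries farthest from the median of Skil. Fn1 and Vcan had r = 0.94 and rho = 0.60 (n = 6, exact permutation p = 0.0222 and 0.242, adjusted p = 0.204 and 0.757), and r = 0.68 without the 2 libraries farthest for Fn1.

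Thbs1 and Ccn2 had correlations near 0 with Fn1 and Vcan. With 6 libraries even r = 0.94 did not pass after adjustment, so these values cannot show that the genes vary apart. Ccn2 with Fn1 had r = 0.012 and rho = 0.14 (n = 6, exact permutation p = 0.982 and 0.803, adjusted p = 0.983 and 0.99). The correlation of Thbs1 with Fn1 was 0.088 and with Vcan 0.012, and that of Ccn2 with Vcan -0.10 (n = 6, exact permutation p = 0.829, 0.983 and 0.767, adjusted p = 0.929, 0.983 and 0.894), and rho was -0.086, -0.029 and -0.26. Each pair was also read without the 2 libraries farthest from the median of its first gene, and 13 of 28 were then positive, with a median of -0.12. The libraries left out differed between pairs. Leaving them out narrows the range of that gene and keeps few libraries, so it cannot show what the positive pairs rested on. The libraries share their tissue, depth and length trend across genes. With the length trend removed, 27 pairs were positive, with a median of 0.57. Ccn2 then had r = 0.26 with Fn1 and 0.16 with Vcan, and Thbs1 had 0.039 and -0.077.

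**Figure D4:**
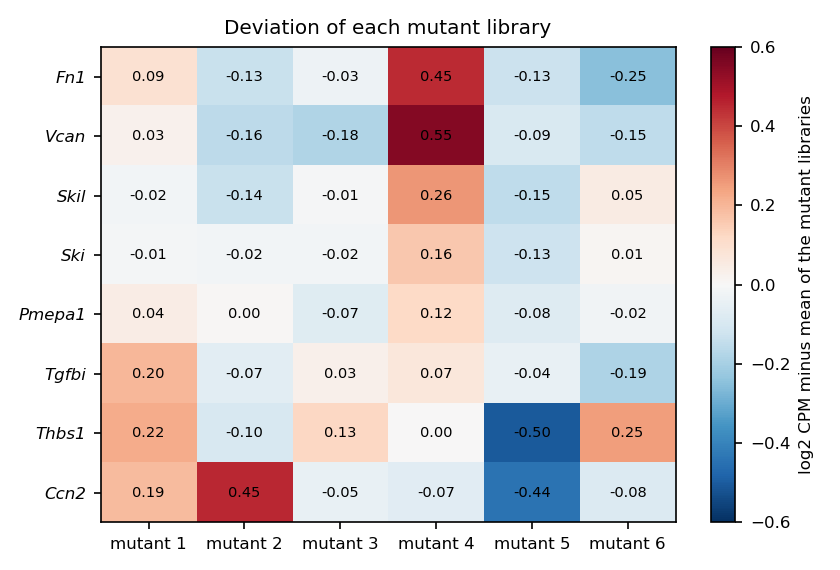
Deviation of log2 CPM from the mean of the 6 mutant libraries, for each gene (rows) and mutant library (columns). Fn1 and Vcan are highest in mutant 4, by 0.45 and 0.55, while Thbs1 and Ccn2 are lowest in mutant 5, by -0.50 and -0.44.

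Across all 9 libraries, the genes most like the average standardized pattern of the 8 were Abcc9 (r = 0.995), Abca1 (r = 0.995), Sidt2 (r = 0.993), Gpc4 (r = 0.99), Lrrk1 (r = 0.988) and Tjp1 (r = 0.986), as a description over 9 libraries. The first of these, Abcc9, a potassium channel subunit that marks pericytes, was at 43.6 CPM in mutant and 18.5 CPM in wildtype, and Abca1, a cholesterol exporter, at 126 CPM in mutant and 61.4 CPM in wildtype. Of 14288 genes compared, 547 had r over 0.9, so a close match of this kind was common. The genes closest to single members were Map4k3 for Thbs1 (r = 0.974), Ets2 for Fn1 (r = 0.994), Hcfc1 for Vcan (r = 0.991), Xpo6 for Skil (r = 0.992), Ssh1 for Ski (r = 0.997), Adar for Tgfbi (r = 0.987), Tmod2 for Pmepa1 (r = 0.985) and Otud7b for Ccn2 (r = 0.975).

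The other listed targets of the pathway moved less evenly. Of 49 further TGF-beta targets, 12 were called higher and 6 lower in the mutant, with a median log2 fold change of 0.15, beside 9.7% called higher and 9.47% lower over all tested genes. Without wildtype 1 the counts were 3 higher and 2 lower, and without wildtype 3 they were 4 higher and 3 lower. The shares of all tested genes called higher were then 1.88% and 5.25%. The 13 nuclear genes of this list were chosen as responding to TGF-beta, with no direction given. They include Id1 and Id3, which are 2 of the 6 called lower. Among 9 feedback genes, 1 was called higher: Klf10, a zinc finger repressor induced early by TGF-beta, was at 41 ± 3.53 CPM in mutant (SD, n = 6) and 32.3 ± 2.38 CPM in wildtype (SD, n = 3; edgeR adjusted p = 0.0224), and lost its call without wildtype 1 or 2 and with the Gm42418 split or share as covariate (edgeR adjusted p = 0.108 and 0.125). Smad7, the inhibitory SMAD and a standard direct target, was at 21.9 ± 1.87 CPM in mutant (SD, n = 6) and 18.7 ± 3.96 CPM in wildtype (SD, n = 3) and did not pass (edgeR adjusted p = 0.238). Wildtype 2 lay within the mutant range for Smad7. The ubiquitin ligase gene Smurf1 and the corepressor gene Tgif1 had log2 fold changes of 0.25 and 0.20 and did not pass either (edgeR adjusted p = 0.0751 and 0.176). Without wildtype 2, Smad7 and Smurf1 were called higher (log2 0.42 and 0.36, edgeR adjusted p = 0.0377 and 0.0285).

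Of 21 matrix and secreted targets, 7 were called higher and the other 14 did not pass, and 3 were higher without wildtype 1 or without wildtype 3. Cilp, a cartilage matrix protein gene, was at 35.9 ± 5.88 CPM in mutant (SD, n = 6) and 8.54 ± 1.99 CPM in wildtype (SD, n = 3), a log2 fold change of 2.07 (SE 0.165, edgeR adjusted p = 2.07e-06). The tenascin gene Tnc and the endothelin gene Edn1 had log2 fold changes of 0.70 and 0.73 (edgeR adjusted p = 0.00388 and 0.00517). The abundant collagen genes Col1a1, Col1a2 and Col3a1 had log2 fold changes of 0.05, -0.10 and 0.08 and did not pass (edgeR adjusted p = 0.875, 0.73 and 0.687).

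Contractile targets moved the other way, with 4 of 6 called lower, beside 9.47% of all tested genes, while the other 2 did not pass. Actg2, the enteric smooth muscle actin gene, was at 33.5 ± 2.55 CPM in mutant (SD, n = 6) and 62.05 ± 3.72 CPM in wildtype (SD, n = 3; edgeR adjusted p = 3.065e-05). Cnn1, the calponin gene, was at 30.15 ± 3.86 CPM in mutant (SD, n = 6) and 49.96 ± 3.92 CPM in wildtype (SD, n = 3; edgeR adjusted p = 0.000897). Without wildtype 1, 2 or 3, 2 of the 6 were called lower, and with the exon length trend removed 2 as well. Of 13 nuclear targets, 4 were called higher and 2 lower. The BMP and TGF-beta responsive gene Id1 was at 63.1 ± 9.54 CPM in mutant (SD, n = 6) and 88.7 ± 5.73 CPM in wildtype (SD, n = 3; edgeR adjusted p = 0.00754), and Jag1, Zeb2 and Cdkn2b had log2 fold changes of 0.47, 0.43 and 0.52 (edgeR adjusted p = 0.0111, 0.0261 and 0.0281). All 6 of these nuclear calls were lost without wildtype 1.

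**Figure D5:**
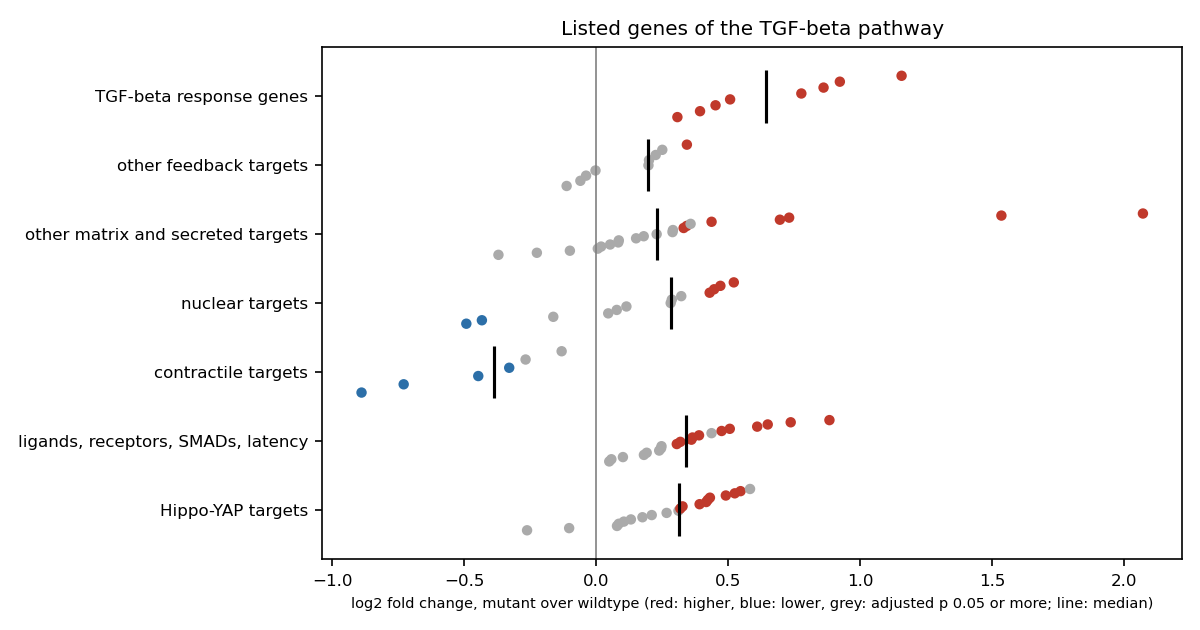
Log2 fold change of mutant over wildtype (horizontal axis) for each tested gene of 7 lists (rows), with a line at each list's median and colours for higher, lower and not called. The 8 response genes and all 20 ligand, receptor, SMAD and latency genes lie to the right of 0, and the contractile targets to the left. The other lists hold genes on both sides of 0, with medians above 0.

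Of 20 ligand, receptor, SMAD and latency genes, 11 were called higher and the other 9 did not pass, beside 9.7% of all tested genes called higher. Their median log2 fold change was 0.34, and all 20 were above 0. The fibrillin genes Fbn1 and Fbn2, the co-receptor gene Tgfbr3 and the integrin gene Itgav, whose product can activate latent TGF-beta, had log2 fold changes of 0.88, 0.74, 0.61 and 0.51 (edgeR adjusted p = 0.00274, 0.00372, 0.00291 and 0.00428). Smad2, Smad3 and Smad4, the transducers, had log2 fold changes of 0.05, 0.25 and 0.25 and did not pass (edgeR adjusted p = 0.723, 0.0532 and 0.0592). Without wildtype 1, 4 of the 20 were called higher, without wildtype 3, 6, and with the exon length trend removed, 7. The shares of all tested genes called higher were then 1.88%, 5.25% and 5.8%. Of 20 tested Hippo-YAP targets other than Ccn2, 9 were called higher and the other 11 did not pass. Their median log2 fold change was 0.32, and 1 was called higher without wildtype 1. Tgfb2 is counted both here and among the ligand, receptor, SMAD and latency genes, and Ccn1 both here and among the 49 further targets. Igfbp3, an insulin-like growth factor binding protein gene, kept its call with every library left out (log2 0.42, edgeR adjusted p = 0.0039), while Myof, Crim1 and Tgfb2 (log2 0.55, 0.42 and 0.32) lost theirs without wildtype 1.

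Among the receptors and processing enzymes of the members, 12 of 17 were called higher and the other 5 did not pass, with a median log2 fold change of 0.34. Over all tested genes 9.7% were called higher and 9.47% lower. Cd36, a receptor for thrombospondin-1 that macrophages and capillaries also carry, was at 34.3 ± 2.17 CPM in mutant (SD, n = 6) and 5.73 ± 1.04 CPM in wildtype (SD, n = 3), a log2 fold change of 2.58 (SE 0.1315, edgeR adjusted p = 9.2e-09). Adamts1, a protease that cleaves versican, and Lrp1, an endocytic receptor for thrombospondin-1, had log2 fold changes of 0.58 and 0.77 (edgeR adjusted p = 0.00113 and 0.0035). The fibronectin receptor chain Itgb1 and the thrombospondin receptor Cd47 had log2 fold changes of 0.06 and 0.10 and did not pass (edgeR adjusted p = 0.652 and 0.534). Without wildtype 1, 5 of these 17 were called higher, and with the exon length trend removed, 7, beside 1.88% and 5.8% of all tested genes. Of 15 tested relatives of the members, 1 was called higher, Stab1 (log2 0.96, edgeR adjusted p = 0.000368), a scavenger receptor of macrophages and sinusoidal endothelium, and 1 lower, Ccn3 (log2 -0.52, edgeR adjusted p = 0.0209), which lost its call without wildtype 1, 2 or 3. The relatives Ccn4 and Dach2 did not pass (log2 0.21 and 0.46, edgeR adjusted p = 0.12 and 0.137).

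Markers of several cell types moved with the genotype as well. Over all tested genes 9.7% were called higher and 9.47% lower. The share called higher was 1.88% without wildtype 1, 9.48% without wildtype 2 and 5.25% without wildtype 3. With the exon length trend removed that share was 5.8%. Of 7 pericyte markers, 5 were called higher (3 without wildtype 1) and the other 2 did not pass, with sums from 552 to 692.5 CPM in mutant and from 413 to 498 CPM in wildtype libraries. Of 12 vascular endothelial markers, 9 were called higher and 1 lower, with sums from 979 to 1111 CPM in mutant and from 787 to 955 CPM in wildtype. Without wildtype 1, 1 of these 12 was higher and 1 lower, and without wildtype 3, 5 were higher and 1 lower. Macrophage markers, 4 of 12 higher with and without wildtype 1, 6 without wildtype 2 and 8 with the exon length trend removed, summed to between 398 and 558 CPM in mutant and between 278 and 291 CPM in wildtype. Red cell markers, 5 of 10 higher and 1 lower (2 higher without wildtype 1, 3 without wildtype 2 or 3), summed to between 1801 and 8793 CPM in mutant and between 537.0 and 954 CPM in wildtype.

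The sums of keratocyte and of smooth muscle markers were lower in every mutant library than in any wildtype library. The sums of iris and ciliary epithelial markers were too, but 0 of these 9 markers were called in either direction. Keratocyte markers, 5 of 9 lower (1 without wildtype 1, 3 without wildtype 2), summed to between 7431 and 9606 CPM in mutant and between 10040 and 12640 CPM in wildtype. Smooth muscle markers, 5 of 7 lower (3 without wildtype 1, 2 without wildtype 2 or 3), summed to between 973 and 1238 CPM in mutant and between 1431 and 1500 CPM in wildtype, and 4 of them are also contractile targets above. Platelet markers bear on Thbs1, since platelets store its protein. They summed to between 48.7 and 91.6 CPM in mutant and between 60.2 and 69.7 CPM in wildtype, and the 5 tested ones had a median log2 fold change of 0.07 and did not pass the test, while 1 was called higher without wildtype 2 or with the exon length trend removed. In these lists every marker had counts in some library. The part of these cell types in the higher levels of the 8 genes was not tested.

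Immediate early genes, which respond to handling of tissue, were called higher in 3 of 19 cases and the other 16 did not pass, and 1 was higher without wildtype 1. Over all tested genes 9.7% were called higher, and 1.88% without wildtype 1. Fosl2 was at 222 ± 23.2 CPM in mutant (SD, n = 6) and 140 ± 25.8 CPM in wildtype (SD, n = 3; edgeR adjusted p = 0.00203). Egr3 ran from 0.214 to 0.97 CPM in mutant libraries and had 0 counts in wildtype 1 and 2 and 0.036 CPM in wildtype 3, and Myc was at 14.9 ± 3.01 CPM in mutant (SD, n = 6) and 10.3 ± 1.1 CPM in wildtype (SD, n = 3). Egr3 lost its call without mutant 1, 5 or 6 or wildtype 1, and Myc without mutant 1, 3, 5 or 6 or any wildtype library. Fosl1 did not pass (log2 1.21, edgeR adjusted p = 0.0813). Fos, Jun, Egr1 and Junb had log2 fold changes of -0.13, -0.11, 0.07 and 0.05 and did not pass. The list summed to 643 to 838 CPM in mutant and 599 to 791 CPM in wildtype libraries, and its part in the higher levels of Thbs1 and Ccn2 was not tested.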

How the data were processed

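Total RNA from 9 pooled samples was sequenced, and the authors deposited 1 table of raw read counts per Ensembl gene. The submitters' processing notes name STAR 2.6.1, HTSeq 0.6.1, DESeq2 1.6.3 and GRCm38 (mm10). No source used here gives the strand setting or the annotation release. Counts per library and TMM factors were turned into CPM. Genes passing edgeR's filterByExpr were tested with edgeR 4.0.16 (R 4.3.3; TMM, robust quasi-likelihood test, Benjamini-Hochberg at 0.05), and the SE was derived from the F statistic. Exact two-sided permutation tests used log2 CPM with a prior count of 2. The model fits were tested on simulated data. DESeq2 1.42.0 and limma 3.58.1 served as alternatives, and mgcv 1.9.3 fitted the exon length trend. Promoter windows came from RefSeq. The labels do not say that samples came from separate litters, so p-values measure the spread between these pools. The counts of each pair of same-group libraries differed beyond sampling noise. The 8 genes and all gene lists were chosen with earlier results of these data known. From each list that holds no markers, up to 4 genes with the lowest p were named, plus every gene of the ratios. Further genes, such as Smad2, Smad3, Smad4, Smad7, Col1a1, Col1a2, Col3a1, Itgb1, Cd47 and Fos, were named after their values were seen. Some genes that these rules cover are not reported here. Of the marker lists, those for retina, skeletal muscle, Schwann cells, iris and ciliary epithelium and periocular mesenchyme are given in the closing section.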

Additional observations from a re-analysis of the deposited data

Results flagged for a closer look

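A gap test on the 6 mutant libraries was run for 54 values, the levels of named genes (all 8 response genes among them) and the ratios, and marked 8 of them, where chance marks about 1 in 20. In mutant 4, Vcan stood at 121.4 CPM, with the other mutant libraries between 72.9 and 84.2 CPM. The same library stood apart for both fibrillin genes, with Fbn1 at 299.7 CPM against 178 to 198 CPM in the other mutants, and Fbn2 at 502.3 CPM against 322 to 361.5 CPM. It did so too for the receptor gene Lrp1, at 596.5 CPM against 348 to 430.4 CPM, and for the YAP target Myof, at 123.7 CPM against 84.1 to 98.1 CPM. All 5 of these genes were high in mutant 4, the library in which Fn1, Skil, Ski and Pmepa1 also reached their highest mutant level. Mutant 4 also had the highest share of Gm42418 counts, 6.91%. Its exon length trend for Vcan was 0.31 on the log2 scale, against at most 0.13 in the other mutants. The part of these in the levels of mutant 4 was not tested.

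Postn was highest in mutant 6, at 779.9 CPM against 664 to 707 CPM in the other mutants, in the library with the lowest mutant level of Tgfbi. Thbs2 was lowest in mutant 5, at 880.7 CPM against 1127 to 1251 CPM, in the library with the lowest mutant level of Thbs1. Tgif1 was highest in mutant 5, at 28.95 CPM against 23.6 to 24.8 CPM.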

How the results depend on the processing

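All 176 log2 fold changes of the 8 genes, over 22 settings other than the main fit at 0.05, were positive. The 22 include the main fit read at 0.01, where Ski was not called (edgeR adjusted p = 0.0224). Thbs1, Fn1, Vcan and Ccn2 were called in all 22, Skil, Tgfbi and Pmepa1 in 21 and Ski in 16. Tested against a fold of 1.2, 4 of the 8 were called higher, and with 1 library left out between 7 and 8. Of all tested genes, 3034 were called, against 4694 by limma-voom, 3774 by DESeq2, 369 against a fold of 1.2, 1032 at 0.01, 1626 with the Gm42418 share and 1877 with its split as covariate, the split chosen after seeing the data. With 1 library left out the count ran from 538 (without wildtype 1) to 3265, and was 1669 without wildtype 3. The other targets called higher numbered 12, against 4 for a fold of 1.2, 7 with the share, 3 at 0.01 and 3 to 14 with 1 library left out. Those called lower numbered 6, against 2 for a fold of 1.2, 2 with the length trend removed, 3 with the share, 3 at 0.01 and 2 to 6 with 1 library left out. Pathway components called higher numbered 11, against 3 for a fold of 1.2, 7 with the length trend removed, 7 with the share, 5 at 0.01 and 4 to 12 with 1 library left out. Without wildtype 2, which leaves as many libraries as leaving out wildtype 1 or 3, 2913 of all tested genes were called. The cause of these shifts was not tested. Same-numbered samples did not deviate together (r = 0.046, -0.0074 and 0.041), and not every sample correlated best with its own number. With the replicate block, mutant 4, 5 and 6 have no wildtype library of their number and do not enter the genotype difference. That fit called 1485 genes, among them 7 of the 8 members (not Ski, at log2 0.30, edgeR adjusted p = 0.053). It called 8 other targets higher and 4 lower, and 8 components higher. Klf10 (edgeR adjusted p = 0.0815) and Trp63 (edgeR adjusted p = 0.0838) lost their calls. The pairs with a positive correlation numbered 19 to 27 with 1 mutant library left out. With 3 wildtype libraries, an exact test cannot give a p under 0.0119.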

Other observations

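Periocular mesenchyme markers had Tfap2b and Pdgfra called higher and Twist1 lower among 8, with sums from 1071 to 1235 CPM in mutant and from 975 to 1128 CPM in wildtype. Without wildtype 1 and with the exon length trend removed none of these 3 calls was kept, and without wildtype 3 only Twist1 kept its call. Schwann cell markers had 1 of 6 called higher, Erbb3, with sums from 131 to 165 CPM in mutant and from 117 to 146 CPM in wildtype. Of the 9 corneal epithelial markers 1 was called higher, Trp63, which lost its call without mutant 3 or 5 or wildtype 1 or 3 and with the exon length trend removed (edgeR adjusted p = 0.203). Without wildtype 2, 2 of the 9 were called higher.

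Retinal markers summed to between 190 and 203 CPM in mutant and between 196 and 209 CPM in wildtype libraries. Skeletal muscle markers summed to between 2.78 and 9.73 CPM in mutant and between 3.02 and 4.90 CPM in wildtype, with Tnnc2 at 0 counts in all libraries. Iris and ciliary epithelial markers summed to between 13820 and 15480 CPM in mutant and between 15540 and 16200 CPM in wildtype, with no overlap in the sums, while the list's median log2 fold change was 0.04. Of these 9 markers 0 were called in either direction. Pmel and Dct, which had the highest levels, overlapped between groups and did not pass (edgeR adjusted p = 0.51 and 0.28). Tyrp1 and Mitf were higher in every mutant library than in any wildtype library and did not pass either.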
